A study of Mus musculus with 3 samples.

Results

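Interferon response and innate sensing genes were examined for open chromatin in the mouse uterus just before implantation. The set is a list of 37 genes, and every FAIRE-seq peak overlapping one of them, or the 10 kb on either side of it, was assigned to it. All 37 symbols matched the gene table, and 28 of the 12413 peaks in the list met the rule. FAIRE-seq is a formaldehyde-based assay that recovers DNA that is not crosslinked to protein and so maps nucleosome-poor DNA. The samples were whole uteri of untreated adult C57BL/6J wild-type females, 6 to 10 weeks old, mated with fertile males and taken on gestation day 4 (3 samples, 1 group). The single peak list names no sample, so library depth is unknown, no value has an error between mice, and no test was made.

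Interferons are cytokines that bind paired receptor chains and, through Jak kinases, activate Stat and Irf transcription factors. These factors bind the interferon-stimulated response element (ISRE) or the gamma-activated sequence (GAS) beside antiviral genes, which are kept low until a signal arrives. Toll-like receptors and cytosolic RNA sensors detect microbes upstream of interferon production, in part through NF-kappa-B. The uterine lining is a mucosal barrier that holds epithelium, stroma and leukocytes, all of which were mixed in this tissue. In such a mixture, open chromatin in few cells and weakly open chromatin in many cells cannot be told apart.

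In the full list, peaks of open chromatin lay at most receptor and transcription factor genes of the set and at few antiviral effector genes. A gene-end peak, meaning one that overlapped the 1 kb around either annotated end of the gene, was found at 4 of 4 interferon receptor genes and 9 of 11 transcription factor genes. It was found at 1 of 5 sensor and adaptor genes, 1 of 12 induced effector genes and 2 of 5 antigen presentation genes. The 37 members together had one at 17 (45.9%), against 44.5% of 21523 protein-coding genes, so in the full list the set as a whole stood close to the background. Receptors and factors together stood at 13 of 15 (86.7%) and the other members at 4 of 22 (18.2%), on either side of that share. This pooling joins the roles with the highest shares, which widens the contrast. The members include 2 transcribed pseudogenes, Mx1 and Mx2, while the background holds protein-coding genes only. Mx2 was the 1 effector with a gene-end peak. With the 6207 peaks of highest fold alone, gene-end peaks were left at 6 of 37 members, a lower share than the 26.2% of protein-coding genes. These were 2 of 4 receptors, 4 of 11 factors and 0 of the other members. One of these receptors, Ifnar2, was kept only by a peak nearer to the end of Il10rb. With peaks anywhere in the gene or within 10 kb, 21 of 37 members (56.8%) had at least 1, against 57.6% of protein-coding genes. These shares are descriptions, and the differences between roles were not tested. Roles were chosen with earlier results of these data known.

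**Figure D1:**
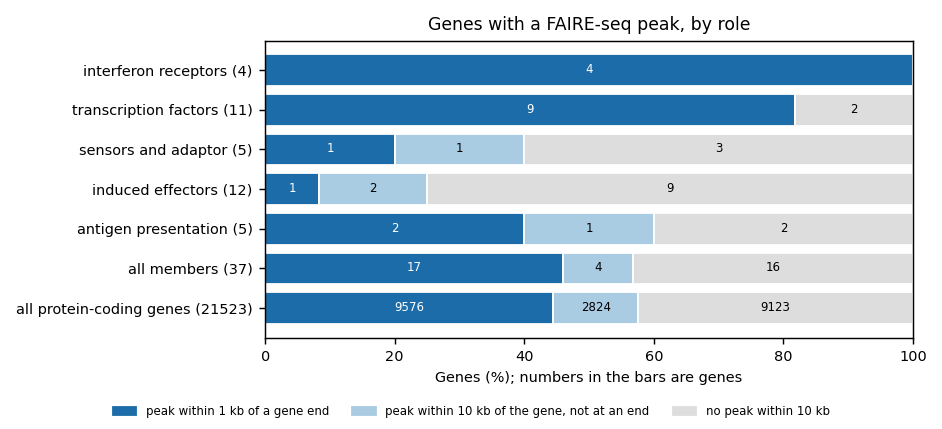
Share of genes (horizontal axis, %) with a peak within 1 kb of a gene end, with a peak within 10 kb only, or with none, for each role, for the 37 members and for all 21523 protein-coding genes; numbers in the bars are genes. The receptor bar is filled by gene-end peaks (4 of 4), while 9 of 12 induced effectors had no peak within 10 kb.

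The window of 10 kb grows with the gene, so length was set beside the counts. Of the members no longer than 17374 bp, the median of protein-coding genes, 12 of 21 (57.1%) had a peak within 10 kb, against 46.7% of protein-coding genes of that length. Of the longer members, 9 of 16 (56.2%) had one, against 68.5%. The members farthest from their nearest peak but still inside the window were Nlrc5 (5479 bp) and Bst2 (5369 bp), and those just outside were Irf3 (11325 bp), Ciita (11538 bp) and Rsad2 (12744 bp).

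Promoter sequences are shown for members with and without a peak. The 300 bases below run from 250 bases before to 50 bases after an annotated start site, 5′ to 3′ on the gene's strand, and come from RefSeq (GRCm38.p6). Isg15, Ifit1 and Oas1a stand for the effectors, with no peak over the promoter. Ifngr1, Irf1 and Irf8 are shown as receptor and factor genes with a peak over part of it. Not all were like these: at Ifnar1, Ifngr2, Irf2, Irf5 and Irf7 the peak within 1 kb of the start covered no base of this stretch. B2m is shown as a gene with both an ISRE core and an NF-kappa-B site and no peak. Capitals mark each match, on either strand, to the ISRE core (GAAA, any 2 bases, GAAA), the GAS core (TTC, any 3 bases, GAA) or an NF-kappa-B site (GGGA, any 1 base, TTTCC).
Isg15 (chr4:156200769-156201068, minus strand): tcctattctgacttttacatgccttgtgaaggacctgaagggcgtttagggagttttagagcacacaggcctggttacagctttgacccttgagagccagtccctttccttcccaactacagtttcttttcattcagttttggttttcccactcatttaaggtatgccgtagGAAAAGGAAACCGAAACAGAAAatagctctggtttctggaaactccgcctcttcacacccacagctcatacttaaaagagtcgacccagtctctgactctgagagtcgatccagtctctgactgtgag
Ifit1 (chr19:34640639-34640938, plus strand): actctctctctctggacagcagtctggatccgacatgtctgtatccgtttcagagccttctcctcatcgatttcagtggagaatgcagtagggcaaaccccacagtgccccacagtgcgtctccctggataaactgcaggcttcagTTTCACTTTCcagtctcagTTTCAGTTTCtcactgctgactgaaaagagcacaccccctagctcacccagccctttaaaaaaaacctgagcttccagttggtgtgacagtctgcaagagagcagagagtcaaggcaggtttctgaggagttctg
Oas1a (chr5:120907476-120907775, minus strand): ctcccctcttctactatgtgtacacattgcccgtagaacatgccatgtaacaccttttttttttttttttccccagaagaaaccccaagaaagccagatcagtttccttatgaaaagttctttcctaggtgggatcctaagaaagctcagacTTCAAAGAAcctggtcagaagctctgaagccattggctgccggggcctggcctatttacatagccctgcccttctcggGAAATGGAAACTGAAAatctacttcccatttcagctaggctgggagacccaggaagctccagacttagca
Ifngr1 (chr10:19591699-19591998, plus strand): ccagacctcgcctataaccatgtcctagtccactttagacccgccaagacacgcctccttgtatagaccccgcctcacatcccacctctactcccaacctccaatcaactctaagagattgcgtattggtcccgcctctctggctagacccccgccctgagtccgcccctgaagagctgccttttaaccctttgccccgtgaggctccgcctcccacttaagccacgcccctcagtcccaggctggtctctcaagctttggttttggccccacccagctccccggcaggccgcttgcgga
Irf1 (chr11:53769764-53770063, plus strand): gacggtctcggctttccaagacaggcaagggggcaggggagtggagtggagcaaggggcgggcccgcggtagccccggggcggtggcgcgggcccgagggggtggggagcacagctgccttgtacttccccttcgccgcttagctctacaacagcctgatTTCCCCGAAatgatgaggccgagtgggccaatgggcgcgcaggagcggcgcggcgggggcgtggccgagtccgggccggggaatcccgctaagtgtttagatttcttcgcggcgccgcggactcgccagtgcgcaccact
Irf8 (chr8:120736108-120736407, plus strand): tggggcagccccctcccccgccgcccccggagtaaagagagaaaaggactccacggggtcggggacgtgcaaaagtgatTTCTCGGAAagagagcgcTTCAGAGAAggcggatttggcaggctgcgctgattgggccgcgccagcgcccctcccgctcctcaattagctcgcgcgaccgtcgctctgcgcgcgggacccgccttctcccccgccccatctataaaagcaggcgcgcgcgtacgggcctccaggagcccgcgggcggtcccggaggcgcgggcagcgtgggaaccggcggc
B2m (chr2:122147437-122147736, plus strand): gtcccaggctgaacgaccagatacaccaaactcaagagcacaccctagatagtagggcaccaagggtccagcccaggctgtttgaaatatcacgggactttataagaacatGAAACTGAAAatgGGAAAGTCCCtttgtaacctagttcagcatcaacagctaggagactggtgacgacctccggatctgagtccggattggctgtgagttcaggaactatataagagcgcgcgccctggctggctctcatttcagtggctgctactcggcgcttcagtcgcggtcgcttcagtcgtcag

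Each of the 4 interferon receptor genes of the set had a start-site peak, meaning one within 1 kb of an annotated start site. Coordinates are those of the authors' table (GRCm38). Ifngr1, the ligand-binding chain of the interferon-gamma receptor, had a peak of 655 bp over its start site (chromosome 10, 19591727 to 19592381), with a coverage of 71 at the summit, a fold enrichment of 6.77 over local background and a −log10 q of 33.5. All such values are the authors' own for each peak. Its summit lay 77 bp downstream of the start site, and 272 of the 300 promoter bases were under the peak.

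Ifnar1, a chain of the type I interferon receptor, had a peak of 315 bp (chromosome 16, 91485319 to 91485633) with coverage 55 and 5.66-fold enrichment, its summit 254 bp downstream of the start. Ifnar2, the other type I chain, had a peak of 521 bp at its start (91372646 to 91373166) with coverage 42 and 4.95-fold enrichment. Ifngr2, the second interferon-gamma chain, had the weakest of the group, 279 bp wide (91547123 to 91547401) with coverage 35 and 3.86-fold enrichment. At the start sites, the 4 receptor peaks therefore ran from 3.86-fold to 6.77-fold. A stronger peak of 9.59-fold (91406100 to 91406559, coverage 91) lay 715 bp beyond the far end of Ifnar2, but the end of Il10rb was nearer, at 147 bp. Il10rb encodes a receptor chain shared by interleukin-10 and lambda interferons. Ifnar2, Il10rb, Ifnar1 and Ifngr2 follow each other over 191 kb of chromosome 16, and that stretch with 10 kb on either side held exactly 4 peaks, and each of its 4 protein-coding genes carried one at an end.

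Among the transcription factors, Rela and Irf1 had the strongest peaks. Rela, the p65 subunit of NF-kappa-B, had a peak of 757 bp across its start site (chromosome 19, 5637241 to 5637997), with coverage 96, 8.13-fold enrichment and −log10 q of 52.0. All 300 bases of its promoter were under that peak. A second Rela peak of 3.49-fold (5654651 to 5654930) lay 6731 bp outside the gene, but the end of Sipa1 was nearer, at 3680 bp. Irf1, an activator induced by interferon-gamma, had a peak of 901 bp (chromosome 11, 53769769 to 53770669) with coverage 91, 7.85-fold enrichment and −log10 q of 48.1. It covered both annotated start sites of Irf1, and its width was at percentile 95.8 of all peaks. A weaker peak of 3.20-fold lay 6323 bp upstream (53763542 to 53764046), with no other protein-coding gene end within 38588 bp.

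Irf2, which opposes Irf1 at many of the same elements, had a peak almost as wide, 899 bp (chromosome 8, 46740563 to 46741461), with coverage 80 and 6.66-fold enrichment. The peak began 818 bp inside the gene, with its summit at 1436 bp, and did not cover the start site itself. Irf8, a factor of the myeloid lineage, had a narrow peak of 253 bp across its start (chromosome 8, 120736178 to 120736430) at 6.42-fold, and another of 3.57-fold in the gene, 4618 bp from its far end. Irf5, which drives inflammatory cytokine genes, had a peak of 464 bp (chromosome 6, 29526685 to 29527148) at 5.75-fold, with its summit 356 bp downstream of the start. Nfkb1, the p105 and p50 subunit gene, had a peak of 251 bp (chromosome 3, 135691291 to 135691541) at 5.06-fold, 530 bp inside the end with the higher coordinate.

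The genes of the ISGF3 complex, which carries type I interferon signals to the ISRE, had weak and narrow peaks. Irf9, its DNA-binding subunit, had a peak of 243 bp (chromosome 14, 55603888 to 55604130) with coverage 29 and 3.75-fold enrichment, and Stat2, a second subunit, had one of 234 bp (chromosome 10, 128270345 to 128270578) with coverage 31 and 3.52-fold enrichment. These folds lay at percentiles 11.4 and 7.27 of all peaks. The summits were 82 bp downstream and 78 bp upstream of the annotated starts. The end of Rnf31 lay 393 bp from the Irf9 summit, and the end of Apof 830 bp from the Stat2 summit.

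Irf7 and Irf3, which switch on the type I interferon genes after sensing, had little. Irf7 had a peak of 237 bp (chromosome 7, 141267016 to 141267252) at 3.15-fold, coverage 27, with its summit at -699 bp from the start. Irf3 had none within 10 kb, and the nearest peak, 11325 bp away, lay at the end of Prmt1. Irf4, a lymphocyte factor, also had none, and its nearest peak was 88950 bp away at the end of Dusp22. Of 16 leukocyte marker genes, 3 had a gene-end peak (Spi1 at 6.11-fold, Ikzf1 at 5.58 and Cd4 at 5.32), and 12 others, including Ptprc, Adgre1 and Csf1r, had no peak within 10 kb. The part of leukocytes in the peaks at Irf5 and Irf8 was not tested. Of 15 uterine markers, 5 had a gene-end peak, namely Epcam, Wnt7a, Des, Hand2 and Hoxa11, whereas Esr1, Foxa2, Krt8, Krt18, Acta2, Myh11 and Vim had no peak within 10 kb. The leukocyte share (18.8%) and the uterine share (33.3%) were both below the 44.5% of protein-coding genes with a gene-end peak. Neither list is therefore a clear readout of its cells in these peaks.

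**Figure D2:**
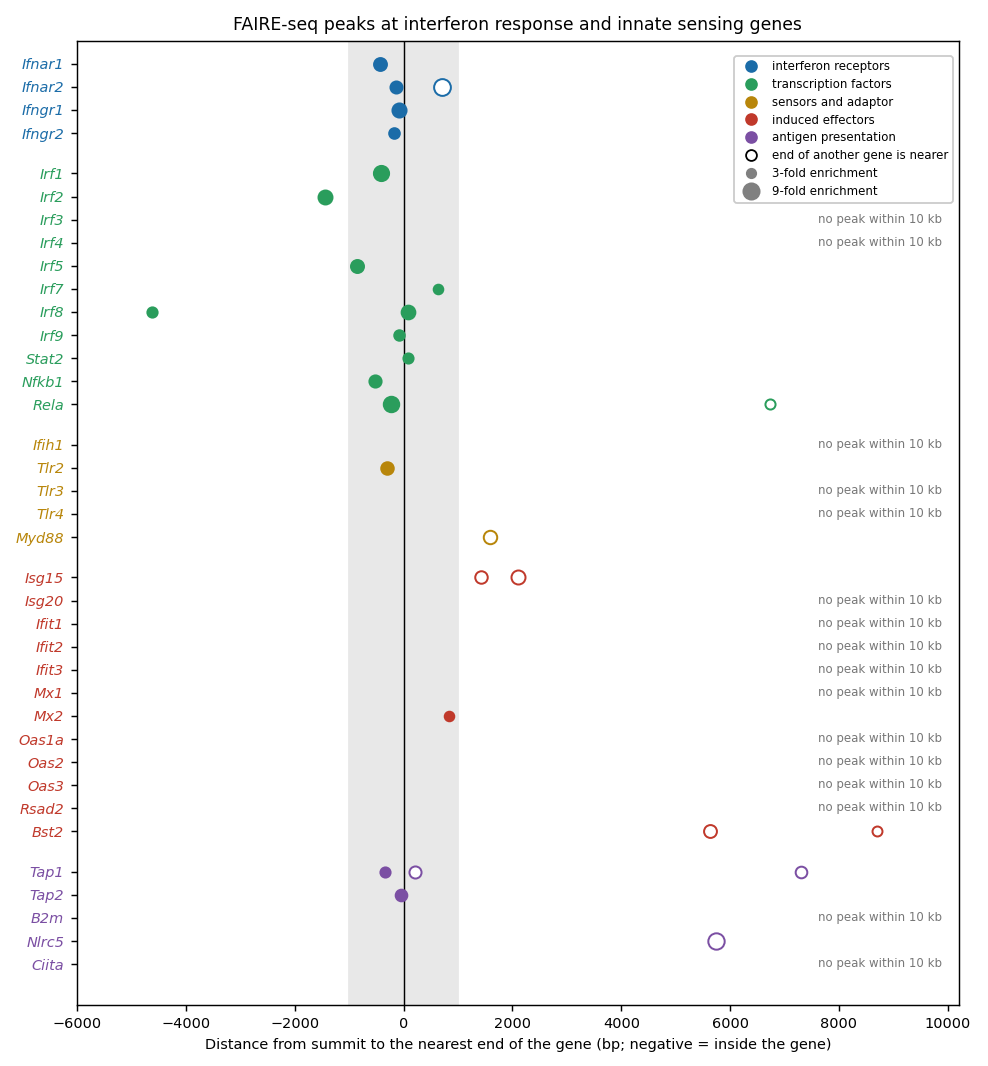
Distance in bp (horizontal axis) from each peak summit to the nearest annotated end of the gene, negative inside the gene, for the 37 members by role; dot area grows with fold enrichment, open dots mark peaks nearer to the end of another protein-coding gene, and the grey band is 1 kb around the end. Receptor and factor peaks crowd the band, while 9 of 12 induced effectors carry no dot.

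Microbe sensors were mostly without peaks. Tlr2, a receptor for bacterial lipoproteins, had a peak of 451 bp over its start site (chromosome 3, 83841306 to 83841756) with coverage 44 and 5.34-fold enrichment, and no other protein-coding gene end within 56693 bp. Tlr3, which binds double-stranded RNA, had no peak closer than 36851 bp. Tlr4, the receptor for lipopolysaccharide, had none closer than 423078 bp, and Ifih1, the cytosolic RNA sensor MDA5, none closer than 779387 bp. Myd88, the adaptor of most Toll-like receptors, had a 6.16-fold peak 1592 bp upstream of its start (chromosome 9, 119341400 to 119341826), but the end of Acaa1a was nearer to that summit, at 582 bp.

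The induced effectors, which block viral entry, translation, replication or release, had no start-site peak where a promoter entry gave the start. Mx1, Mx2 and Oas2 had no such entry, so their start sites were not assessed. None of the 9 effectors with a promoter entry had a start-site peak, against 46.7% of 17274 protein-coding genes with such an entry. Ifit1, Ifit2 and Ifit3, which bind viral RNA, lie in a run of 5 protein-coding genes over 99.5 kb of chromosome 19, and that run with 10 kb on either side held 0 peaks. The Oas genes, whose products activate RNase L, lie in a run of 8 protein-coding genes over 177 kb of chromosome 5 (Oas2, Oas3 and Oas1a among them), also with 0 peaks. The nearest peak to Ifit1 was 96985 bp away and that to Oas1a 185731 bp away. Rsad2, which encodes viperin, and Isg20, an RNA exonuclease, had their nearest peaks at 12744 bp, beside Cmpk2, and at 17226 bp, beside Aen.

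Where effectors did have a peak within 10 kb, it sat closer to a neighbour in 4 of 5 cases. The 5 peaks belonged to only 3 genes. How often this holds over all protein-coding genes was not counted, so it is not shown to be particular to effectors. Isg15, a ubiquitin-like modifier, had peaks of 6.70-fold (chromosome 4, 156197071 to 156197527) and 5.31-fold (156197858 to 156198130), whose summits were 204 bp and 475 bp from the end of Agrn but 2095 bp and 1416 bp from that of Isg15. Bst2, the membrane tether tetherin, had a 5.64-fold peak 189 bp from the end of Mvb12a and a 3.38-fold peak 166 bp from the end of Ccdc194. The remaining peak lay 835 bp outside Mx2 (chromosome 16, 97535122 to 97535344) with coverage 25, and its 3.12-fold enrichment was at percentile 1.81 of the list. Mx1 and Mx2, of the family of dynamin-like antiviral GTPases, are both annotated as transcribed pseudogenes in the RefSeq genes used here. Mx1 had no peak within 72216 bp. From the gene span, the median distance to a peak was 21380.5 bp over the 12 effectors, against 329 bp over protein-coding genes. The 12 effectors include the pseudogenes Mx1 and Mx2.

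Antigen presentation genes were divided. Tap1 and Tap2, the paired subunits of the peptide transporter for MHC class I, lie close together on chromosome 17, with Psmb8 between them. Tap1 had a 4.98-fold peak upstream of its start (34187232 to 34187522), shared with Psmb9, whose end lay 20 bp from the summit, against 206 bp for Tap1. A second Tap1 peak of 3.53-fold lay 338 bp inside the gene (34187667 to 34188057). Tap2 had a 4.62-fold peak 45 bp inside one of its ends (34204362 to 34204694), which also fell within 10 kb of Tap1 and was the 1 peak assigned to 2 members. B2m, the MHC class I light chain, had no peak closer than 29124 bp. Ciita, the MHC class II transactivator, had none closer than 11538 bp. Nlrc5, the class I transactivator, had a 9.13-fold peak 5734 bp beyond its end (chromosome 8, 94532751 to 94533306), and the end of Cpne2 was only 332 bp from that summit.

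Peaks at these genes were of modest strength. The 28 peaks had a median fold enrichment of 5.19 (interquartile range 3.56 to 6.48, range 3.12 to 9.59), against 5.80 (4.37 to 7.79) over the whole list, and 9 of 28 exceeded the list's median. The 19 gene-end peaks had a median of 5.06, against 6.06 over the 9229 peaks of the list that overlapped a protein-coding gene-end window. By role, the median fold of gene-end peaks was 5.66 at receptors (5 peaks, including the one beside Il10rb) and 5.75 at factors (9 peaks). The peaks were also narrower, at a median of 362 bp against 427 bp. Their local background, computed from coverage and fold, had a median of 8.40 and reached 11.2, against a median of 8.59 for the list. Of the 28 peaks, 9 lay nearest to the end of a gene outside the set, a count for which no background over all genes was made.

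**Figure D3:**
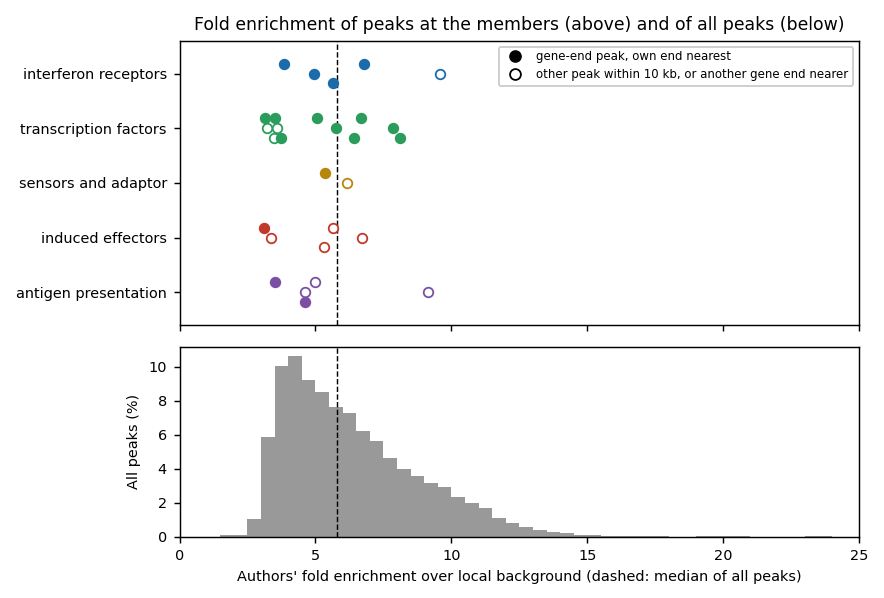
Authors' fold enrichment (horizontal axis) of the peaks of each role above, and of all 12413 peaks below as a histogram (vertical axis, % of peaks); filled dots are gene-end peaks whose own gene end is nearest, and the peak of both Tap genes is drawn for each. The dashed line is the median of all peaks, 5.80, and 9 of the 28 peaks lie to its right.

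Promoters of the members differed in base composition by role. A promoter entry existed for 29 of 37 members; Mx1, Mx2, Oas2, Tap2, Nlrc5, Ciita, Tlr4 and Nfkb1 had none. At the most upstream start, the 4 receptor promoters held 14 to 31 CpG dinucleotides (median 22) and the 10 factor promoters 7 to 38 (median 20.5). The 4 sensor and adaptor promoters held 10 to 14 (median 12), the 2 antigen presentation promoters 14 and 15, and the 9 effector promoters 1 to 11 (median 4). The median over protein-coding genes was 14. Effector promoters therefore lay below the receptor promoters without overlap, while the factors spanned both.

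Start-site peaks became more frequent with CpG content in the whole gene table, and the members followed the same order with an exception at low counts. With 0 to 4 CpG, 0 of 5 members had a start-site peak, against 3.76% of protein-coding genes. With 5 to 9 CpG, 2 of 4 had one (Irf7 and Irf9), against 16.6%, and with 10 to 14 CpG, 2 of 9 (Ifngr1 and Tlr2), against 41.3%. With 15 to 19 CpG it was 3 of 4, against 64.6%, and with 20 or more 7 of 7, against 87.3%. The effectors, all at 11 CpG or fewer, had 0 of 9, where 10.1% of protein-coding genes with such promoters had a peak. Members with over 11 CpG, none of them effectors, had 11 of 15 (73.3%), against 77.9% of protein-coding genes with such promoters. CpG content and role thus moved together in these genes, and the part of each was not tested.

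**Figure D4:**
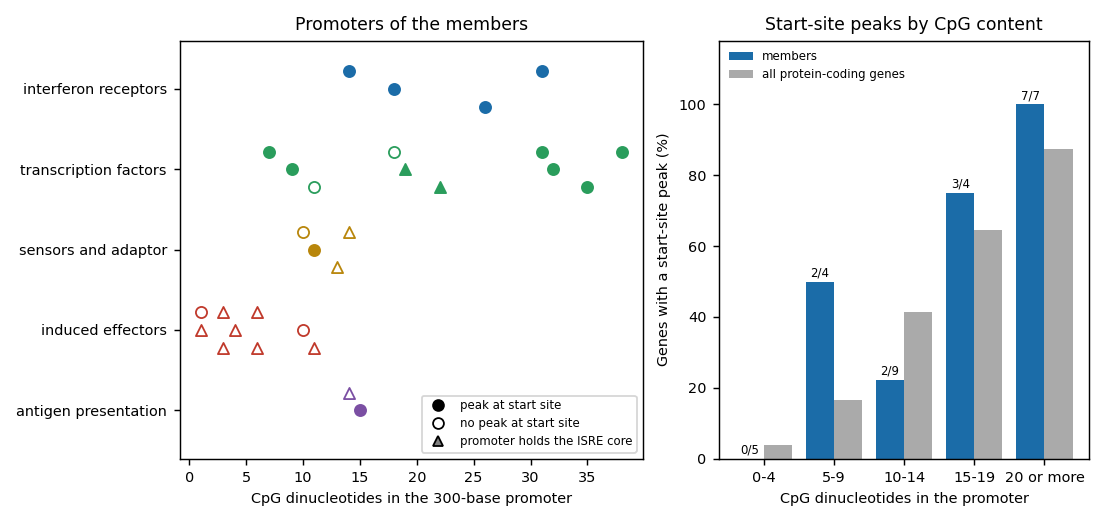
Left, CpG dinucleotides in the 300-base promoter (horizontal axis) of the 29 members with an entry, by role; filled symbols have a start-site peak and triangles hold the ISRE core. Right, share of genes with a start-site peak (vertical axis, %) by CpG content, members beside all protein-coding genes, with the counts of members above the bars: 0 of 5 at the lowest content and 7 of 7 at the highest.

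Among the members, the ISRE core lay mostly at genes without a start-site peak, and the GAS core equally at genes with and without one. Most matches to either core lay under no peak. The ISRE core was found on either strand in 12 of 29 members (41.4%), against 3.98% of protein-coding genes with an entry. It was present in 7 of 9 effectors, 2 of 4 sensors and adaptors (Ifih1 and Myd88), 2 of 10 factors (Irf2 and Stat2), 1 of 2 antigen presentation genes (B2m) and 0 of 4 receptors. Isg15 had 3 overlapping matches, whose first bases lay at -78, -72 and -66 from the start site, and Ifit1 had 2, at -104 and -85. Of the 12 genes with the element, 2 had a start-site peak and 10 had none, whereas 33.9% of 687 protein-coding genes with the element had one. With up to 11 CpG, 0 of 7 members with the element had a start-site peak, and over protein-coding genes the share was 10.9% with the element and 10.1% without it. None of the 18 matches in the members lay under a peak. These matches came from the 12 genes, 10 of them without a start-site peak, so this count largely repeats the one above.

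The GAS core occurred in 10 of 29 members (34.5%), against 9.02%. It was in 5 of 14 members with a start-site peak and 5 of 15 without one. Of its 11 matches, 3 lay under a peak: the match at -90 in Irf1, and those at -171 and -153 in Irf8, which can be seen in the sequences above. Matches at Ifnar1, Ifnar2, Irf2, Isg20, Ifit2, Bst2, Oas1a and Myd88 lay under none. At Bst2 and Myd88 the GAS match overlapped an ISRE match. The NF-kappa-B site occurred in 3 of 29 (10.3%), against 0.486%, at B2m, Ifngr2 and Tlr3, and no peak covered it. For no element was the share of matches under a peak counted over all promoters, so these counts have no background. A match is a stretch of letters and does not show that a factor binds there.

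Further genes of these pathways also differed between roles, in lists chosen with earlier results known and without a test. Among signal transduction and feedback genes, 10 of 11 carried a gene-end peak (90.9%), led by the kinase Jak2 (11.2-fold), the phosphatase Ptpn2 (9.54), the kinase Jak1 (8.10) and the phosphatase Ptpn11 (8.08), with Ptpn6 the exception. The NF-kappa-B pathway stood at 12 of 14 (85.7%), led by the inhibitor Nfkbie (9.87), the adaptor Bcl10 (9.76), the feedback enzyme Tnfaip3 (9.01) and the kinase Chuk (8.32); Nfkb2 and Nfkbib had none. Cytosolic sensing genes stood at 5 of 11 (45.5%), led by the kinase Tbk1 (11.2), the adaptor Mavs (6.51), the DNA sensor Cgas (6.34) and Samhd1 (6.08).

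Toll-like receptor pathway genes stood at 6 of 16 (37.5%): Tlr6 (12.5), Traf6 (10.6), Tirap (9.44), Irak1 (7.17), Traf3 (4.92) and Irak4 (3.50). Tlr6 was the only 1 of 7 further Toll-like receptor genes with a gene-end peak, and the other 5 genes encode adaptors, ubiquitin ligases or kinases. Further induced effectors stood at 6 of 26 (23.1%): Tapbp (7.44), Adar (6.82), Eif2ak2 (6.00), Psmb9 (4.98), Cmpk2 (4.47) and Xaf1 (4.12), with none at the Gbp, Ifitm or Parp genes listed. Interferon ligand genes, Ifnb1, Ifng and Ifne among them, had no gene-end peak, and neither did the lambda interferon receptor gene Ifnlr1, which had no peak within 10 kb. Its partner chain gene Il10rb was the 1 of 11 in that list with a gene-end peak. The peaks given for Psmb9 and Il10rb are those described above beside Tap1 and Ifnar2, and peaks of other close neighbours were not separated in these lists. The background for all these counts is the 44.5% of protein-coding genes given above.

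**Figure D5:**
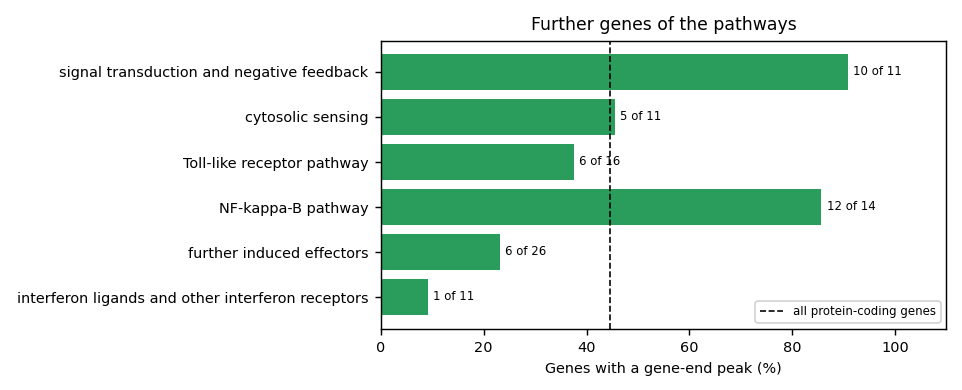
Share of genes with a gene-end peak (horizontal axis, %) in 6 further lists of pathway genes, with the counts beside the bars; the dashed line is the share of all protein-coding genes, 44.5%. Signal transduction (10 of 11) and NF-kappa-B genes (12 of 14) lie above it and further induced effectors (6 of 26) below.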

How the data were processed

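FAIRE DNA from 3 gestation day 4 uteri was sequenced by the authors. Frozen tissue (100 mg) was fixed for 9 min with 1% formaldehyde and its chromatin sheared to about 300 bp, per the labels' protocols. Per the submitters' processing notes, FastQC, Bowtie2, HOMER and MACS2 were used with build GRCm38.p5. Call threshold, control and pooling: not given in the sources used here. The deposited table gives the coverage (pileup) signal at each summit, the fold enrichment as a ratio over local background, and the −log10 q of each peak, per the file headers. Local background was computed here as (coverage + 1) / fold − 1.

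Genes came from RefSeq (GRCm38.p6), with genes starting below 3 Mb left out, on 19 autosomes and X. Start sites and strand came from its promoter entries. All counts were made in Python 3.11.15 (pandas 2.3.3) and tested on simulated peaks. A peak counts for every gene whose window it overlaps. Roles and lists were chosen with earlier results of these data known. Every member is named; of each further list, up to 4 genes with the highest gene-end fold by rule, others after their values were seen. Alternatives changed the window, the peaks, the assignment and the motif. One gene of the signal transduction list is not reported here.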

Additional observations from a re-analysis of the deposited data

How the results depend on the processing

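Keeping the 6207 peaks with the highest fold, or those with the highest −log10 q, gave the same counts in either case. Members with a peak within 10 kb fell to 9 (background 36.2% and 35.9%), and members with a gene-end peak to 6 (26.2% and 26.0%). By role these were 2 receptors, 4 transcription factors, 0 sensors and adaptors, 0 effectors and 0 antigen presentation genes. One of the 2 receptors, Ifnar2, was kept only by the peak beside Il10rb. Windows of 5 kb at gene ends gave 2 sensors and adaptors and 2 effectors, adding Myd88 and Isg15. Assigning each peak to the nearest protein-coding gene end only gave 0 effectors, because Mx2 is not protein-coding. The longer element (GAAA, any 2 bases, GAAACT) was found in 4 members in place of 12. The other alternatives moved no count by over 1.5 times: 15 to 30 members had a peak with 0 to 50 kb on either side, and 13 to 19 a gene-end peak with windows of 500 bp to 5 kb. Start sites alone, an alternative chosen after seeing the data, gave 14.

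No mouse was left out in turn, since the table has no values per sample. No paired analysis was possible because there is 1 group and the table names no sample. Exons, repeats and mappability were not analysed here, so the lack of a peak does not show closed chromatin.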

Other observations

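Across all protein-coding genes with a promoter entry, 47.3% of the 16587 whose promoter lacked the ISRE core had a start-site peak, and the share with the core is given above. Among promoters with over 11 CpG, 72.9% of 255 with the element had a start-site peak, against 77.9% of 9331 such promoters in all. For the GAS core the shares were 36.5% of 1558 genes with it and 47.8% of those without it. These are descriptions of 1 peak list, and no test was made.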
